A study of Mus musculus with 6 samples.

Results

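The guanylate-binding protein (GBP) genes were followed in bulk RNA sequencing of cultured mouse cortical astrocytes. The members were chosen by symbol from the deposited gene count table, and all 10 were found among its 54532 genes: Gbp2, Gbp2b, Gbp3, Gbp5 and Gbp7 on chromosome 3 and Gbp4, Gbp6, Gbp8, Gbp9 and Gbp10 on chromosome 5. The family had been picked from the same comparison of knockout and control cultures, so its values and per-gene calls in that comparison are given as a description. No test was run on the family as a set. The knockout cultures (GFAP-Cre::NEOf/f, 3 libraries) came from pups carrying floxed Neo1, the gene of the receptor neogenin, and a Cre recombinase driven by the Gfap promoter, so deletion is directed to astrocytes and other cells with Gfap activity. The control cultures (3 libraries) came from littermates, whose label says control and whose library name (Neoff) carries the floxed allele but no Cre. The sources used here do not give strain, age, sex or days in culture. No pup, litter or dish is named for any replicate, so p-values measure the spread between these libraries.

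GBPs are large GTPases of the dynamin superfamily that interferons induce in most cell types. They gather on the vacuoles of intracellular parasites and on the surface of bacteria in the cytosol, where they disrupt membranes and bring in inflammasome components. They act with the immunity-related GTPases (IRGs) and need part of the autophagy conjugation machinery to reach vacuoles, and Gbp2, Gbp2b and Gbp5 carry a C-terminal CaaX box that is prenylated and anchors them to membranes.

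Short stretches of 2 kinds are shown: upstream motifs of the chromosome 3 genes, a sequence feature that the choice of members did not use, and the coding starts of the chromosome 5 genes, whose likeness bears on how reads are divided among them. Promoters were those of RefSeq on GRCm38.p6, from 250 bases before to 50 after each start, and 5 of the 10 members (Gbp2, Gbp2b, Gbp3, Gbp5 and Gbp7) matched, with 6 entries. The core of the interferon-stimulated response element (ISRE) was searched on both strands as GAAA, any 2 bases, GAAA, which reads TTTC, any 2 bases, TTTC on the strand printed. All sequences below are on the + strand of chromosome 3, 5′ to 3′, with 1 ISRE match per gene in capitals and, for Gbp7, also its 2 matches to the STAT core described after them.
Gbp2, chr3:142620594-142620623: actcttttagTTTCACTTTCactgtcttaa
Gbp2b, chr3:142594700-142594729: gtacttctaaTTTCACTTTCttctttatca
Gbp3, chr3:142559989-142560018: caggacacagTTTCAGTTTCtatttcccag
Gbp5, chr3:142496759-142496788: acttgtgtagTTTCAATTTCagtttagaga
Gbp7, chr3:142530220-142530302: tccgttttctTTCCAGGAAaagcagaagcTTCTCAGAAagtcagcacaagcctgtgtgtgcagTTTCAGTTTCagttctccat

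An ISRE core was found for 5 of these 5 genes, against 3.99% of 27025 genes with a promoter entry. The match began 59 bases upstream of the RefSeq start in Gbp2, 137 in Gbp2b, 45 in Gbp3, 165 in Gbp5 and 53 in Gbp7. That of Gbp2 lay within an exon of the GENCODE annotation, and that of Gbp3 overlapped another ISRE match, beginning 39 bases upstream, whose remaining bases are left in lower case above. The core bound by STAT factors, TTCNNNGAA (the same letters on both strands), was found for 2 of the 5, Gbp5 and Gbp7, against 9.55% of genes. In the Gbp7 stretch its matches, the first capitals printed, began 106 and 87 bases upstream. Both motifs stood together in these 2 members and in 0.614% of all genes, and in neither member did the ISRE match overlap a STAT match. A match describes letters and shows no binding.

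The first 60 coding bases of the chromosome 5 genes, from GENCODE M21 transcripts on GRCm38, are printed on the coding (−) strand, 5′ to 3′, with bases that differ from Gbp10 in capitals. Gm43302 is not a member: it is an annotated protein-coding gene that runs through both Gbp10 and Gbp6.
Gbp10, chr5:105236075-105236134: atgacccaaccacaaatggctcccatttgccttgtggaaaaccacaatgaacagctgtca
Gbp6 and Gm43302, chr5:105290961-105291020: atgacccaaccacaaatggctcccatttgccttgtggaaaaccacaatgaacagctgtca
Gbp4, chr5:105136962-105137021: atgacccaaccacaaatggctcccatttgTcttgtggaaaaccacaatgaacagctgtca
Gbp8, chr5:105050988-105051047: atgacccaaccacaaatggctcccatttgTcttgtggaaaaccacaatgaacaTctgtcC
Gbp9, chr5:105105788-105105847: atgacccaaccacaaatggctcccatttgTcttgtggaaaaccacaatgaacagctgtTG

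Gbp10 and Gbp6 had 0 differences over these bases, Gbp4 had 1 from Gbp10, and Gbp8 and Gbp9 had 3 each. Over whole transcripts the same closeness held for Gbp10, of which 97.8% of the longest transcript matched Gbp6 at 99.1% identity. By contrast Gbp2 and Gbp2b, the closest pair on chromosome 3 over a long run, matched at 83.8% over 1709 bases. Exact windows of 100 bases that also occur in another gene made up 70.9% of Gbp10 and 51.3% of Gbp6, both mostly through each other and Gm43302. They made up 10.2% of Gbp7, through the processed pseudogene Gm43802 that lies in its exon, and under 5% of each other member, with 0 in Gbp2 and Gbp2b. The sources used here do not give the read length or the rule for reads with several placements, so how reads of Gbp6 and Gbp10 were divided is uncertain.

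**Figure D1:**
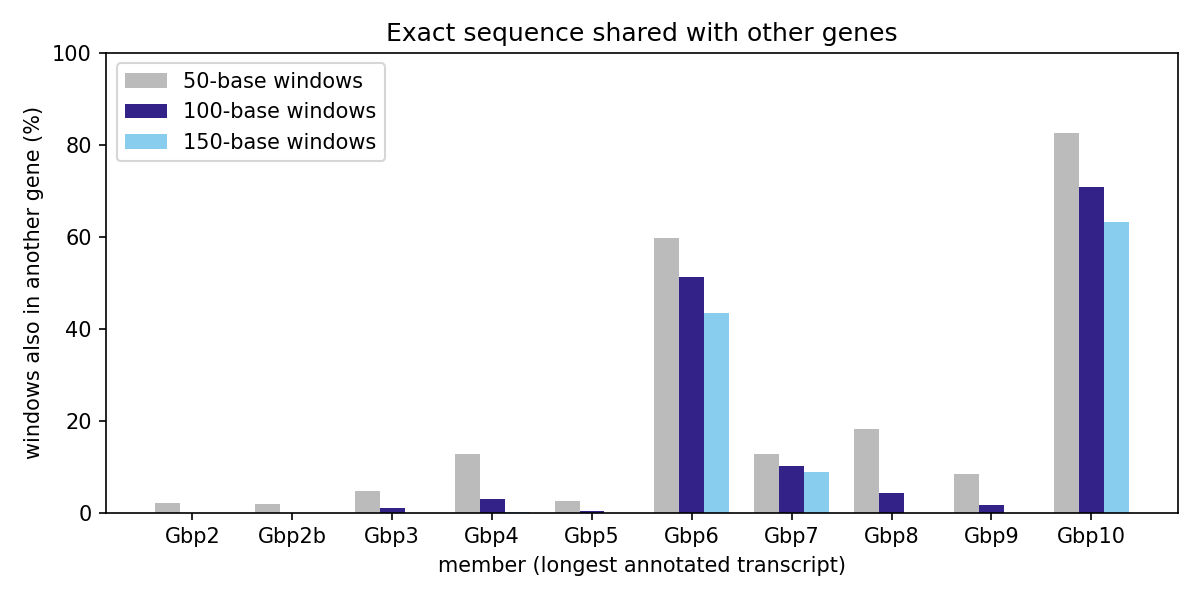
Share of exact windows of each member's longest annotated transcript that also occur in a transcript of another gene (y axis, percent), for windows of 50, 100 and 150 bases (bars). Gbp10 and Gbp6 stand above all other members at each window length, at 70.9% and 51.3% for 100 bases.

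The table held 60819277 to 106081115 counts per library, with 22076 genes detected in knockout replicate 2 and up to 25767 in the others. The first principal component (49.3% of variance) separated the genotypes, and on the second (19.6%) knockout replicate 2 stood apart from the other knockout libraries, so values without it are given below. Neo1 fell from 192 ± 5.20 to 104 ± 2.69 CPM (counts scaled to library size; SD, n = 3), a log2 fold change of −0.89 (edgeR, adjusted p = 5.82e-11), and was still detected in every knockout library. Of 18530 genes tested, 3627 rose and 3466 fell, and with scaling by total counts 2921 rose and 4499 fell. All 12 astrocyte markers were detected. In these bulk samples fewer cells of a type and less RNA per cell cannot be told apart.

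Every tested GBP gene was higher in knockout cultures, by 1.14 (Gbp5) to 3.04 (Gbp4) on the log2 scale. Of the 10 members 9 had enough counts to be tested by edgeR's quasi-likelihood test. All 9 were called higher, where 38.3% of tested genes were called in either direction and 19.6% were called higher. Gbp8 is among the 9 only through its knockout libraries, since control counts of 24, 8 and 17 would not pass the filter alone. In all 9 every knockout library lay above every control library, which held for 24.7% of tested genes. Their median log2 fold change was 2.09, against −0.00 over all tested genes. All 9 differed by at least 1 on the log2 scale, as did 5.97% of tested genes, and 4 were among the 100 largest. The members were chosen from this contrast, so these counts describe them and support nothing further. Without knockout replicate 2 the range was 1.11 (Gbp5) to 2.96 (Gbp4), and all 9 stayed called when any 1 library was left out.

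**Figure D2:**
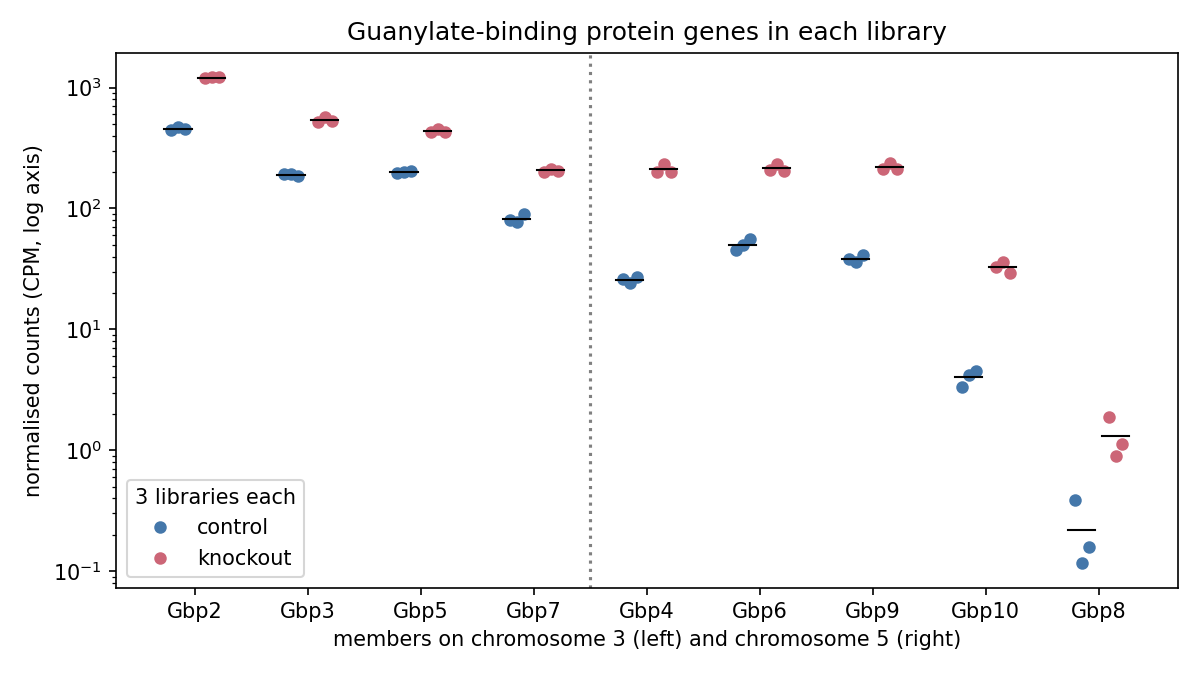
Normalised counts (CPM, log axis) of the 9 tested members in each of 3 control (blue) and 3 knockout (red) libraries, with the group means as black lines and chromosome 3 members to the left of the dotted line. The groups do not overlap for any member shown, and Gbp8 has the widest spread within each group.

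The prenylated members are described first. Gbp2, which reaches Toxoplasma vacuoles in infected cells, lies on the + strand at chr3:142620602-142638008 with 11 exons. Its level was 442, 474 and 454 CPM in the control libraries and 1197, 1212 and 1216 CPM in the knockout libraries. The knockout libraries were thus close together and all well above the controls, with means of 457 ± 16.0 and 1209 ± 9.81 CPM (SD, n = 3) and a log2 fold change of 1.40 ± 0.04 (SE). Gbp5, which promotes inflammasome assembly, lies at chr3:142493978-142522344. It stood at 195, 199 and 204 CPM in control and 429.7, 458 and 430.3 CPM in knockout libraries. Its log2 fold change of 1.14 ± 0.04 (SE) was the smallest of the tested members, and its groups did not overlap.

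Gbp2b, formerly called Gbp1, lies between Gbp3 and Gbp2 at chr3:142594847-142619179. It had 0 counts in each control library and 6, 0 and 9 counts in knockout replicates 1, 2 and 3. It was therefore too low to be tested, and its groups overlapped at 0. A count of 0 over the 3 control libraries allows a level of up to 0.0128 CPM (3 counts over their summed totals, counting error only). The gene shared 0 windows of 100 bases with any other gene.

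The other chromosome 3 members lack a CaaX box. Gbp3 (chr3:142560026-142573209) stood at 192, 193 and 184 CPM in control libraries and 519, 570.3 and 525 CPM in knockout libraries, highest in knockout replicate 2. It had the largest difference on this chromosome, with a log2 fold change of 1.50 ± 0.05 (SE). Gbp7 (chr3:142530342-142550149), which has been tied to NADPH oxidase and autophagy proteins, stood at 79.9, 76.6 and 89.9 CPM in control libraries and 201.5, 213 and 204 CPM in knockout libraries. Both genes had groups that did not overlap, and the log2 fold change of Gbp7 was 1.33 ± 0.06 (SE).

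The 5 members on chromosome 5 all lie on the − strand. Gbp4 (chr5:105115767-105139586) stood at 26.2, 24.0 and 27.0 CPM in control libraries and 201, 235 and 199 CPM in knockout libraries. With 25.7 ± 1.55 against 212 ± 20.1 CPM (SD, n = 3) it had the largest log2 fold change of the family, 3.04 ± 0.07 (SE), and ranked 45 among tested genes. Gbp9 (chr5:105077630-105139539) stood at 38.1, 35.9 and 40.9 CPM in control libraries and 214, 236 and 212 CPM in knockout libraries. Its log2 fold change was 2.52 ± 0.06 (SE), and again knockout replicate 2 was the highest library.

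Gbp6 and Gbp10 have to be read with their shared sequence in view. Gbp6 (chr5:105270702-105293698) stood at 45.2, 49.6 and 55.7 CPM in control libraries and 209, 232 and 202.5 CPM in knockout libraries, a log2 fold change of 2.09 ± 0.07 (SE). Gbp10 (chr5:105215699-105239533) stood at 3.33, 4.22 and 4.54 CPM in control libraries and 33.0, 35.8 and 29.4 CPM in knockout libraries, a log2 fold change of 3.01 ± 0.11 (SE). Neither gene's groups overlapped. Gm43302, with 81.6% of its 4310 exon bases inside Gbp6 or Gbp10 exons, had 3, 2 and 6 counts in control and 81, 15 and 9 in knockout libraries and was not tested. Its exons cover 46.3% of the exon bases of Gbp10 and 29.0% of those of Gbp6. The 3 genes summed gave 54.2 ± 5.90 CPM in the controls and 248 ± 18.3 CPM in the knockouts (SD, n = 3), a ratio of 4.57. This sum does not depend on how counted reads were split among the 3 genes. Reads left uncounted for having several placements, or for falling in exons that these genes share, would be missing from it. The sum also leaves out Gbp11, a relative described below that shares sequence with Gbp6.

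Gbp8 was the faintest tested member. Its exons begin in the same stretch as those of Gbp4 and Gbp9, with which it shares 61 and 60 exon bases, and it runs to chr5:105014150-105139540. It had 24, 8 and 17 counts in control and 179, 65 and 83 in knockout libraries, or 0.386, 0.116 and 0.157 CPM against 1.87, 0.888 and 1.14 CPM. The groups did not overlap, but the highest library exceeded the lowest 3.33-fold among controls and 2.11-fold among knockouts. Its log2 fold change of 2.60 ± 0.48 (SE) moved between 2.22 without knockout replicate 1 and 3.22 without control replicate 1. In the other tested members the coefficient of variation within a group was at most 15.6% (Gbp10, control).

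**Figure D3:**
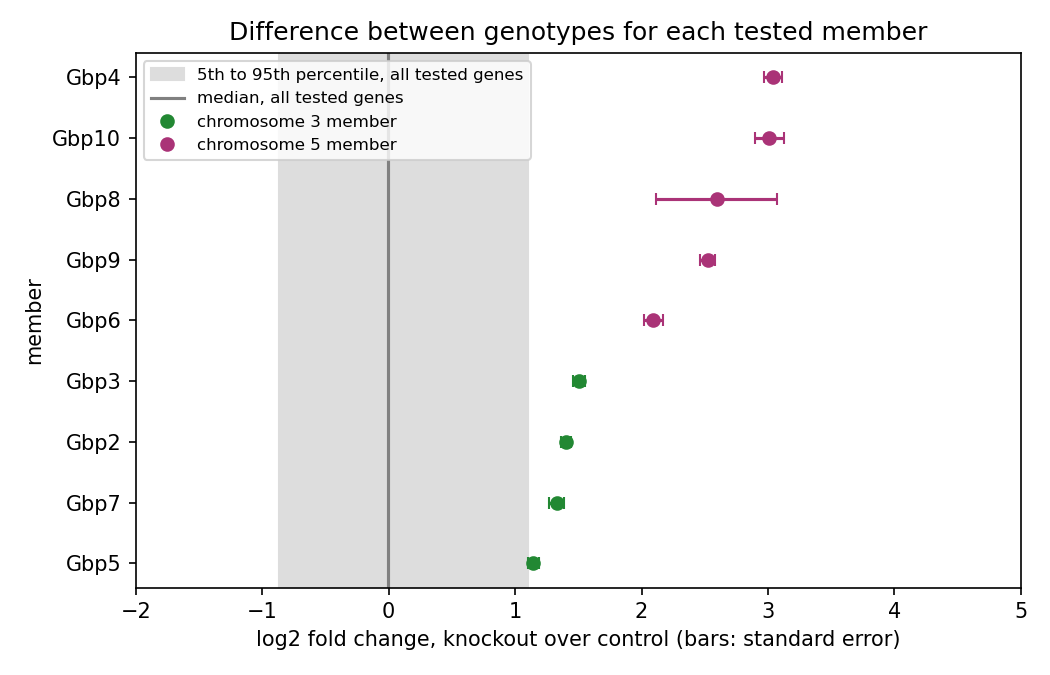
Log2 fold change of knockout over control (x axis) with its standard error (bars) for the 9 tested members, chromosome 3 in green and chromosome 5 in purple. The grey band spans the 5th to 95th percentile of all tested genes (−0.87 to 1.10), and chromosome 5 members run from 2.09 to 3.04, right of the chromosome 3 members at 1.14 to 1.50.

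Tested members on chromosome 3 and on chromosome 5 thus differed in size of difference, and their ranges did not overlap. The 4 tested members on chromosome 3 ran from 1.14 to 1.50 on the log2 scale with a median of 1.37. The 5 on chromosome 5 ran from 2.09 to 3.04 with a median of 2.60, which is the value of Gbp8. Summed counts of the chromosome 3 members were 928 ± 17.1 CPM in controls and 2392 ± 55.1 CPM in knockouts, a ratio of 2.58. For chromosome 5 they were 118 ± 8.55 and 681 ± 51.4 CPM (SD, n = 3), a ratio of 5.75. All 10 members together gave 1046 ± 20.9 CPM in controls and 3073 ± 104 CPM in knockouts, a log2 ratio of 1.55, or 1.53 without knockout replicate 2. The 4 members with the smallest differences were also the 4 highest per length in control cultures, so chromosome and control level cannot be told apart here.

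**Figure D4:**
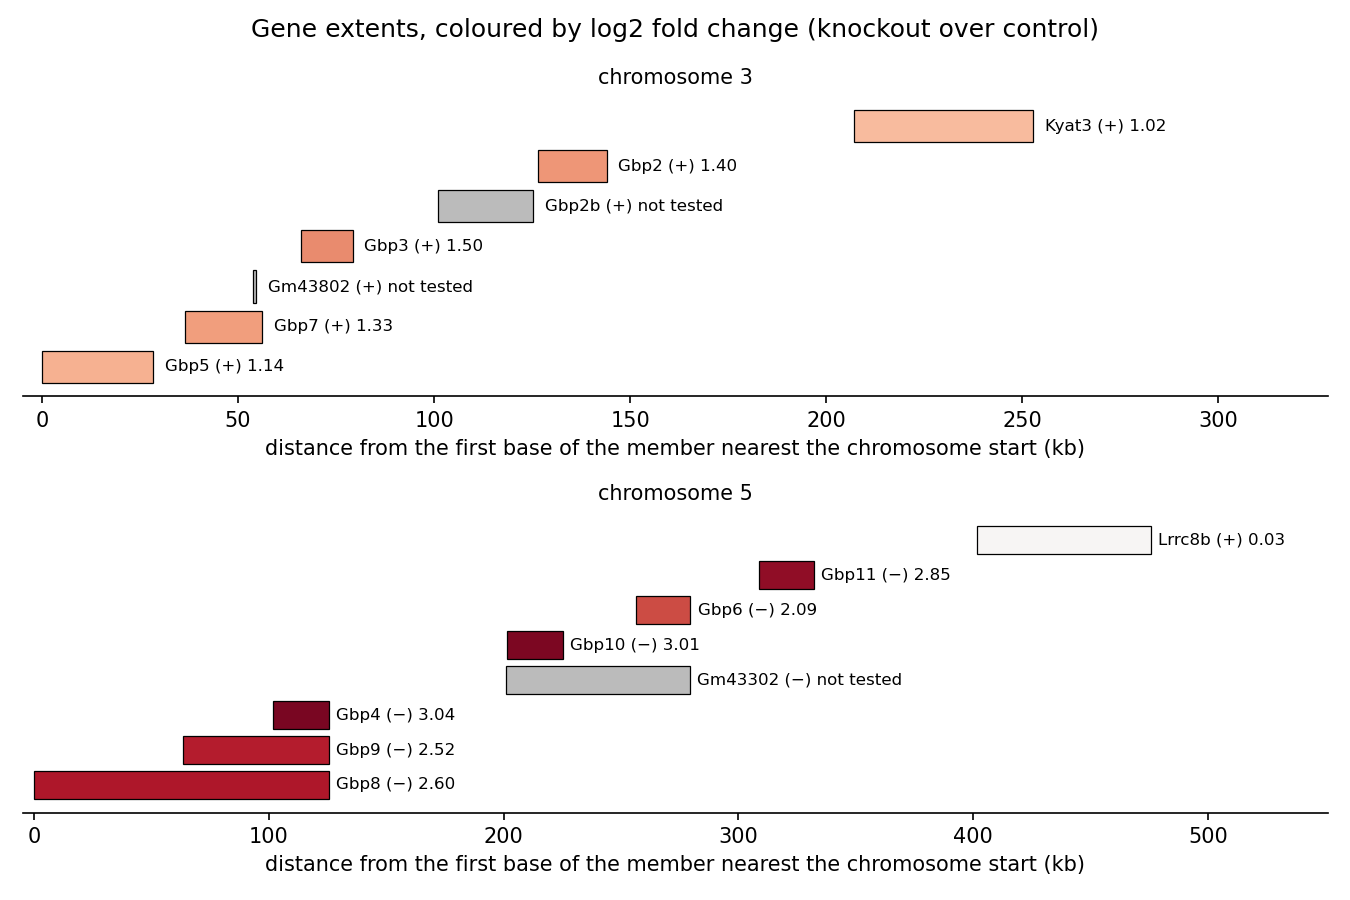
Extent of each member and of named neighbours (x axis, distance in kb) at the chromosome 3 and chromosome 5 loci, one gene per row, with the strand and the log2 fold change of knockout over control beside it and in its colour (red higher, grey not tested). The chromosome 3 members share the + strand and the chromosome 5 members the − strand, where each tested member is at 2.09 or more.

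Levels were compared between genes as CPM per kb of merged exon length. In control cultures the order ran Gbp2 at 181.5, Gbp3 at 58.1, Gbp5 at 30.0, Gbp7 at 14.6, Gbp6 at 8.43, Gbp9 at 7.41, Gbp4 at 3.43, Gbp10 at 1.04, Gbp8 at 0.0638 and Gbp2b at 0 CPM per kb. Neighbours in this order had separate ranges over the 3 libraries except Gbp6 and Gbp9. Gbp2 stood 3.12-fold above the next member. The other lengths tried gave every member the same control rank. None of these lengths accounts for sequence repeated at another locus, so the levels of Gbp6 and Gbp10 stay uncertain in both groups.

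In knockout cultures Gbp2 (480.3 CPM per kb), Gbp3 (165) and Gbp5 (66.2) kept the first places. Gbp9 followed at 42.7, above Gbp7 at 36.7 and Gbp6 at 36.0, whose ranges overlapped, and Gbp4 came to 28.2 CPM per kb. The places of Gbp9, Gbp7, Gbp6 and Gbp4 depended on the length used: per longest transcript Gbp6 stood at 50.6, Gbp4 at 46.6, Gbp9 at 43.8 and Gbp7 at 36.7 CPM per kb. Gbp10 at 8.46, Gbp8 at 0.377 and Gbp2b at 0.0220 CPM per kb remained last.

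Members on chromosome 5 made up more of the family in each knockout library than in any control library. Chromosome 3 members held 93.3 ± 0.481% of the summed CPM per kb in control and 86.6 ± 0.663% in knockout cultures (SD, n = 3). The share of Gbp2 was 59.6 ± 0.889% against 55.6 ± 1.25%, and that of Gbp5 was 9.85 ± 0.207% against 7.66 ± 0.0920%. The share of Gbp3 stayed at 19.1% in both. Gbp4 went from 1.13 ± 0.0842% to 3.26 ± 0.227% and Gbp9 from 2.43 ± 0.181% to 4.94 ± 0.180% of the family.

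**Figure D5:**
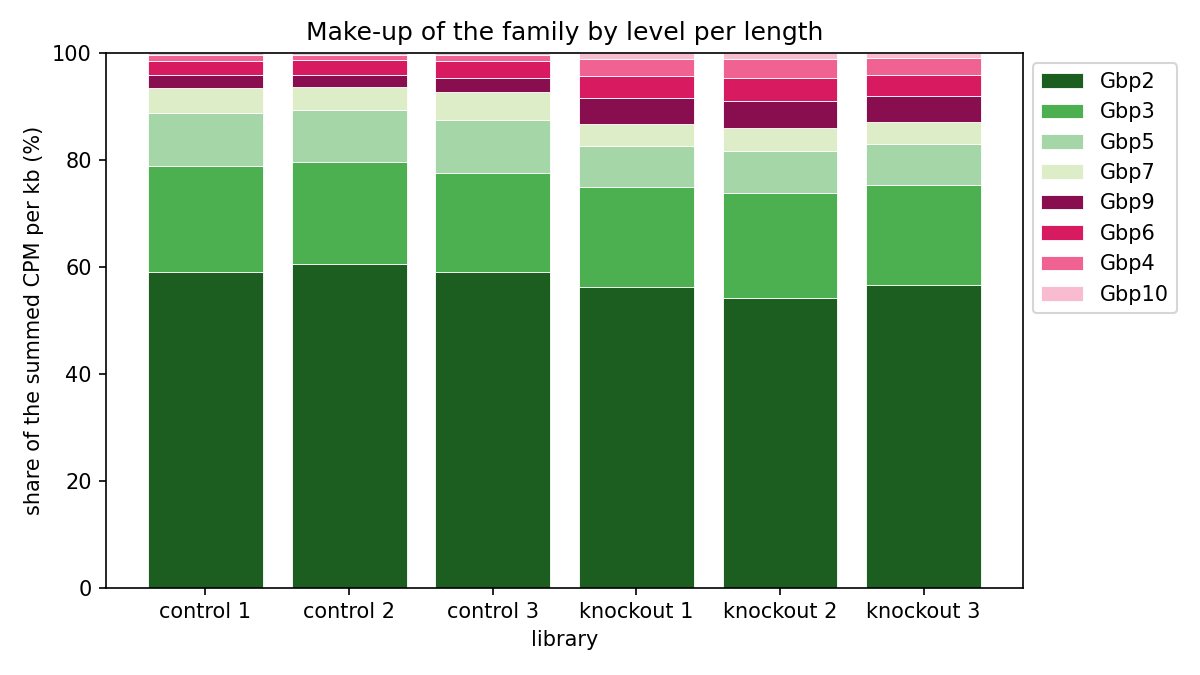
Share of each member in the family's summed CPM per kb of exon (y axis, percent) in each of the 6 libraries, chromosome 3 members in green and chromosome 5 members in red. Gbp8 and Gbp2b, at most 0.0642% each, are not drawn. The red share lies above that of the control libraries in each knockout library, with means of 6.69% and 13.4%.

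Non-member genes in and around the loci, or sharing sequence with members, rose, fell, did not pass the test or were not tested. Gbp11, a GBP relative annotated as a polymorphic pseudogene on chromosome 5 and sharing stretches at over 95% identity with Gbp4, Gbp6 and Gbp8, rose from 1.29 ± 0.199 to 9.28 ± 0.755 CPM (log2 fold change 2.85, edgeR adjusted p = 1.82e-10). Next to the chromosome 3 locus, Kyat3, a kynurenine aminotransferase, rose from 2.13 ± 0.164 to 4.32 ± 0.478 CPM (log2 fold change 1.02, edgeR adjusted p = 0.000152). On the other side Pdlim5, a PDZ and LIM domain protein, fell from 604 ± 24.3 to 460.5 ± 7.76 CPM (log2 fold change −0.39, edgeR adjusted p = 8.02e-07). Beyond the chromosome 5 locus Lrrc8b, a volume-regulated anion channel subunit, stood at 58.2 ± 1.95 and 59.4 ± 1.86 CPM (edgeR adjusted p = 0.726), with overlapping groups. Abcg3, on its other side, had 0 counts in 5 libraries and 4 in knockout replicate 3. Gm43802, which lies on 637 bases of a Gbp7 exon on the same strand, had 0 counts in every library. Reads there fall in both genes, so the 0 does not show that those bases had no reads. Mir6381, inside the chromosome 3 locus, had 3 counts, all in knockout replicate 3. Gm14149 on chromosome 2 and Gm29055 on chromosome 1 hold stretches like Gbp5. Gm14149 had 0 counts in every library and Gm29055 had 12, all in control replicate 3.

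The non-member genes most like the family were taken as those with the smallest Euclidean distance, over the 6 libraries, to the members' median profile of log2 CPM minus the control mean. The median profile stood at −0.03, −0.01 and 0.07 in control libraries and 2.07, 2.21 and 2.02 in knockout libraries. Of 12300 candidate genes, the nearest was Ifit2 at a distance of 0.0339, followed by 9930111J21Rik2 (0.165), Ifi205 (0.168), Ifi44 (0.173), Phf11b (0.206), Gm12185 (0.232), Iigp1 (0.245) and Zbp1 (0.288). Ifit2 went from 228 ± 7.71 to 981 ± 68.0 CPM. These genes were picked for the likeness, so no test of their differences is given here. Iigp1 is also on the IRG list below, where its edgeR value is given as part of that list.

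Genes of the pathway around GBPs were read from lists drawn up by function, with earlier results of these data known. The list counts therefore describe these genes and are no independent test. Over all tested genes 38.3% were called in either direction and 19.6% were called higher. Among 10 interferon ligand genes 1 was testable: Ifnb1, the type I interferon beta, rose from 0.201 ± 0.0751 to 2.36 ± 0.479 CPM (log2 fold change 3.53, edgeR adjusted p = 2.96e-07), on counts of 16, 8 and 25 against 234, 135 and 204. Like Gbp8, Ifnb1 passed the count filter only with its knockout libraries. Ifng, Ifna4, Ifna1, Ifna2 and Ifnl2 are named after their values were seen. Ifng, the type II interferon that is the classical inducer of GBPs, had 4 counts in knockout replicate 1 and 0 in the other libraries. Ifna4 had 0 counts in each control library and 17, 14 and 6 in the knockout libraries. Ifna1 had 4 counts, all in knockout replicate 3, and Ifna2 had 3, all in knockout replicate 1. Ifnl2 had 5, 0 and 7 counts in control and 4, 15 and 0 in knockout libraries, with overlapping groups. Another 4 ligands were at 0 throughout.

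Of 11 interferon receptor and signalling genes 8 rose and 0 fell, with a median log2 fold change of 0.19. Without knockout replicate 2, 7 rose. Jak2, a receptor-bound kinase, rose by 1.31 (edgeR adjusted p = 6.88e-13). Stat2, a transcription factor of type I interferon signalling, rose by 0.80 (edgeR adjusted p = 1.1e-10). Irf1, a transcription factor needed for GBP induction by interferon gamma, rose by 0.54 on the log2 scale (edgeR adjusted p = 6.15e-08). The differences of Stat2 and Irf1 were smaller than that of any tested GBP gene, and that of Jak2 exceeded that of Gbp5 alone; the differences between genes were not tested.

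Of 6 feedback inhibitors 5 rose and 1 fell. Usp18, which blocks the type I receptor, rose by 1.13 (edgeR adjusted p = 4.64e-12) and Socs1, an inhibitor of Janus kinases, by 1.17 (edgeR adjusted p = 4.11e-07). Irf2 (0.35), Pias1 (0.34) and the phosphatase gene Ptpn2 (0.32) rose less on the log2 scale (edgeR adjusted p = 0.000316, 0.00254 and 0.000169). Socs3, an inhibitor of gp130 cytokine signalling, fell by 0.47 (edgeR adjusted p = 2.61e-05).

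All 10 genes on the list of IRGs, the GTPases that act on vacuoles with GBPs, rose, with a median log2 fold change of 1.89. Iigp1 (Irga6) went from 82.7 ± 1.01 to 388 ± 29.6 CPM (log2 fold change 2.23, edgeR adjusted p = 2.87e-15). Gm12250 (Irgb10), which acts with GBPs on bacteria, rose by 2.50 (edgeR adjusted p = 1.03e-13). Ifi47 rose by 1.92 and Gm4951 by 1.87 (edgeR adjusted p = 4.32e-14 and 2.83e-13).

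Genes linked to the placement of GBP proteins were called in both directions, where 38.3% of all tested genes were called. The count of autophagy genes called is near that share. Of 10 autophagy conjugation genes 1 rose and 3 fell, and 4 fell without knockout replicate 2, while the other 6 did not pass the test with all libraries. Those called with all libraries were Gabarapl1 (0.20), and Map1lc3a (−0.46), Gabarapl2 (−0.26) and Map1lc3b (−0.12), all of the ATG8 family (edgeR adjusted p = 0.00575, 2.23e-05, 0.00128 and 0.0347). Of 6 genes for CaaX processing 2 rose and 3 fell. Pggt1b, the beta subunit of the enzyme that adds geranylgeranyl groups, rose from 26.95 ± 2.58 to 44.0 ± 1.57 CPM (log2 fold change 0.70, edgeR adjusted p = 4.83e-07), and the methyltransferase gene Icmt rose by 0.15 (edgeR adjusted p = 0.0253). The protease gene Rce1 fell by 0.33, the farnesyltransferase beta gene Fntb by 0.30 and Fnta, the alpha subunit shared by both transferases, by 0.18 (edgeR adjusted p = 0.00443, 0.00508 and 0.00962). Zmpste24, another CaaX protease, had a log2 fold change of 0.06 (edgeR adjusted p = 0.369).

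Of 9 inflammasome and pyroptosis genes 4 rose and 1 fell. Casp4 (caspase-11), which is activated on GBP-coated bacteria, rose from 17.7 ± 0.934 to 40.7 ± 4.42 CPM (log2 fold change 1.20, edgeR adjusted p = 1.97e-09). Casp1 rose by 1.34 and the pore protein gene Gsdmd by 1.22 (edgeR adjusted p = 2.42e-10 and 2.11e-08). Il1b, the cytokine that caspase-1 matures, fell from 145 ± 6.36 to 86.9 ± 8.52 CPM (log2 fold change −0.74, edgeR adjusted p = 4.32e-08).

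Some markers of other cell types were called between genotypes, as were 38.3% of all tested genes in either direction. The counts of endothelial and neuronal markers called are near that share. All 6 fibroblast and meningeal markers rose, with a summed level of 3065 to 3248 CPM in control and 4741 to 5362 CPM in knockout libraries. Of 9 endothelial markers 7 were testable and 3 rose, from a summed 82.6 to 88.2 CPM to 139 to 141 CPM. Those that rose were Cdh5 (26.8 ± 0.439 to 53.4 ± 1.93 CPM), Flt1 (43.5 ± 2.87 to 68.1 ± 1.37 CPM) and Kdr (11.8 ± 1.65 to 14.8 ± 1.26 CPM; SD, n = 3), while Cldn5 and Erg, the 2 not tested, were at most 0.203 CPM in any library. The other tested endothelial markers were not called. Their means were 1.06 and 1.40 CPM in control and knockout for Pecam1, 1.06 and 1.54 for Tek, 0.213 and 0.215 for Tie1, and 0.119 and 0.195 for Emcn. Without knockout replicate 2, 2 of 8 tested endothelial markers rose. All 9 endothelial genes are named after their values were seen. Of 14 microglial and macrophage markers 1 rose and 11 fell, from a summed 108 to 115 CPM to 66.1 to 70.5 CPM. Of 12 astrocyte markers 2 rose and 8 fell, from a summed 3116 to 3181 CPM to 2808 to 2943 CPM. Neuronal markers (6 tested) had 2 fall, and oligodendrocyte-lineage markers (9 of 10 tested) had 2 rise and 4 fall. The part of cell make-up in the GBP differences was not tested. For T and NK cells, which make interferon gamma, 0 of 10 markers could be tested: Nkg7 and Ncr1 were at 0 throughout and the summed level was at most 0.379 CPM in control and 0.0547 CPM in knockout libraries.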

How the data were processed

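RNA was extracted with Trizol and selected with poly-T beads, per the labels' protocols. Per the submitters' processing notes the tools were HISAT2 2.2.1 and featureCounts 2.0.6 and the build GRCm38 (mm10). The authors deposited raw counts of reads for each gene, as whole numbers without normalisation. The sources used here do not give the annotation release, strand setting, read length or multi-mapping rule, so counts of near-identical or overlapping genes (Gbp6, Gbp10, Gm43302) are uncertain.

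Columns were assigned by library name. Genes passing filterByExpr by genotype (minimum count 10, total 15) went into edgeR 4.0.16 under R 4.3.3 (TMM, robust glmQLFit, glmQLFTest, two-sided, genotype alone), adjusted by Benjamini-Hochberg over all tested genes, threshold 0.05, and the procedure was tested on simulated data. CPM use TMM-adjusted library sizes. No library repeated another of its group (chi-square averaged over genes, 5.97 to 21.8 for the pairs of libraries). Coordinates and lengths came from GENCODE M21, which held 54495 of the 54532 identifiers. Copies were searched with BLAST 2.17.0 (at least 95% identity over 100 bases) and exact windows. Protein sequences were not used here.

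Named were the members, Neo1, genes inside or next to the loci, near-identical genes, the 8 nearest profiles (protein-coding, mean log2 CPM at least 1), and up to 4 called genes per pathway list with the smallest p, or all in lists of 6 or fewer. Cell type marker lists are given by counts and summed levels. A gene that this rule names is not reported here. Members and lists were chosen with earlier results of these data known. Alternatives were other scalings, DESeq2 1.42.0, other filters, a replicate block and each library left out.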

Additional observations from a re-analysis of the deposited data

How the results depend on the processing

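The 9 tested members kept their direction and side of the threshold in 107 of 107 values under 12 other settings (Gbp8 was not tested with at least 1 CPM in 3 libraries). The log2 ratio of summed GBP counts was 1.49 with total-count scaling, against 1.55, and 1.56 with near-identical genes added. Total-count scaling moved the median of all tested genes from −0.00 to −0.07. The members' median log2 fold change was 2.30 without a filter, which adds Gbp2b, and 1.81 with at least 1 CPM in 3 libraries, which removes Gbp8, against 2.09. With 50-base windows 5 members shared over 10% of windows, against 3 with 100 bases and 2 with 150. With each library left out in turn, 9 members stayed called, their median ran from 2.02 to 2.17, the summed ratio from 1.53 to 1.57, genes rising from 2907 to 3517 and genes falling from 2753 to 3431. With the replicate number as a block, 9 members were called with a median of 2.10, and 3501 genes rose and 3383 fell. Samples of the same number correlated by −0.01 to 0.02 in their deviations, so the numbers were not taken to pair them. Exon length without shared bases and lists without knockout replicate 2 were chosen after seeing the data. Summed counts, which were not fitted, were not computed under DESeq2, other filters or the block. Depth limits Gbp2b and Gbp8.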
